A study of Mus musculus with 2 samples.

Results

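The cap mesenchyme is the layer of nephron progenitor cells that surrounds each tip of the branching ureteric tree, and 10 genes used as markers of its uncommitted cells are described here: Cited1, Meox1, Crym, Dapl1, Tmem100, Osr1, Spock2, Traf1, Uncx and Elavl4. They were taken by name, with Six2 and its relatives and the Eya, Sall and Pax genes left out, and each matched 1 of the 43346 genes in the deposited tables. Total RNA was sequenced from mouse kidneys of strain B6NCrl at embryonic day 14.5. The 2 libraries were biological replicates 1 and 2 of 1 group, for which no treatment is named, and each came from both kidneys of 1 pup and from 10 ng of RNA. The sex field reads as pooled although a single pup is described, the donor identifier is shared, and the kidneys were collected on different days. No second condition was sequenced, so levels, their order, their transcripts and the difference between libraries are given, with no test between groups. An SD over the libraries measures only their own spread, part of which may be technical.

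Nephron progenitors either renew themselves or, on a WNT signal from the ureteric bud, commit to form pretubular aggregates and renal vesicles. Cited1 and Six2 are both high in the self-renewing cells. Cited1 is lost first as cells are primed to leave this state, so it marks the least committed of them, whereas Six2 persists slightly longer. Several of the markers are not restricted to the kidney or to these cells: Elavl4 is best known from neurons, Tmem100 from endothelium, Traf1 from lymphocytes, and Meox1 and Uncx from somites. In whole tissue, fewer cells of a type and less RNA per cell cannot be told apart.

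The letters before annotated start sites are shown for the members whose start choice or low level the text describes. The sequences come from RefSeq on GRCm38.p6, the assembly also known as mm10, and RefSeq start sites were found for 6 of the 10 members (Cited1, Uncx, Spock2, Elavl4, Traf1 and Dapl1). Each line gives, 5′ to 3′ on the strand of the gene, the part of the 250 bases before a start site that no annotated exon covers, and capitals mark TATAAA, searched on both strands. The 3 Cited1 stretches are shown because its transcripts begin at several starts, although that of Cited1-201 held 88.0% and 87.0% of the level. They lie on the minus strand at chrX:102252182-102252431, chrX:102251919-102252033 and chrX:102250947-102251026. The stretch labelled Cited1-202 ends directly before the start of Cited1-205 (102251918), which was listed at 0 in both libraries. The stretch labelled Cited1-203 ends directly before the start of Cited1-204 (102250946) and not next to that of Cited1-203 (102250775).
Cited1, start of Cited1-201: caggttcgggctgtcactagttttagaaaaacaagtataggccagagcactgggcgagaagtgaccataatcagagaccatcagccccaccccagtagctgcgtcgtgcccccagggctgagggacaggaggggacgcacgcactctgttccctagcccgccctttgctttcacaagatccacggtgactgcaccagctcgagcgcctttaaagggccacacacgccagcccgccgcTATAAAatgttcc
Cited1, start of Cited1-202: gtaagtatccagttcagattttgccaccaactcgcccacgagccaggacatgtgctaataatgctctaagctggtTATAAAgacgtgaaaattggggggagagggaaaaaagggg
Cited1, start of Cited1-203: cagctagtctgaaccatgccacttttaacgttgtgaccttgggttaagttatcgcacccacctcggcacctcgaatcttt

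For Elavl4 the farthest start and an inner one are shown, on the minus strand at chr4:110351912-110352161 and chr4:110287528-110287777, because its level was spread over many starts. For Dapl1, the member with the lowest level, the stretch lies on the plus strand at chr2:59484403-59484652.
Elavl4, start of Elavl4-207: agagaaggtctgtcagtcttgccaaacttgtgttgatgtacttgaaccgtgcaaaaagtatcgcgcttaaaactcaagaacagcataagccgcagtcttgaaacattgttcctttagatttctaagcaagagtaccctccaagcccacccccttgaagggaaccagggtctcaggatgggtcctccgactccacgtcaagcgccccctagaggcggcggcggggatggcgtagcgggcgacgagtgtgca
Elavl4, start of Elavl4-202: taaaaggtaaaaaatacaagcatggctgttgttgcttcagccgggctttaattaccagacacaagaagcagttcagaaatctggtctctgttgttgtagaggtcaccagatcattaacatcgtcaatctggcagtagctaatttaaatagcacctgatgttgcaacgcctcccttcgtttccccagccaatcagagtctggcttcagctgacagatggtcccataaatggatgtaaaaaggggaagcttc
Dapl1, start of Dapl1-201: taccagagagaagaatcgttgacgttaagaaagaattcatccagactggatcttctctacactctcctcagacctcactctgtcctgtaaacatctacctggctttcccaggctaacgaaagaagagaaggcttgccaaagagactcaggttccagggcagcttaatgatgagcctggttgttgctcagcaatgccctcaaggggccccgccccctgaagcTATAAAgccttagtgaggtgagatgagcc
Of 32817 mouse start sites in the same table, 12.4% had TATAAA on either strand within 250 bases upstream. Among the 11 member start sites 3 had it: 29 bases before the Dapl1 start, 13 bases before the start of Cited1-201 and 115 bases before the RefSeq start 9 bases from that of Cited1-202. The GC content over 250 bases ranged from 44.0% before the inner Elavl4 start to 65.2% before the start of Cited1-203, against a median of 52.4% over all start sites. The same 2 windows held 4 and 30 CpG dinucleotides, against a median of 6. A match of letters is a description of the sequence and not evidence of a working promoter element.

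All 10 markers were detected, which here means 1 TPM or more in both libraries, as were 33.1% of all genes and 59% of protein-coding genes. TPM is a transcript abundance per unit of length, scaled to a fixed sum in each library, so genes can be set side by side within a library. The difference between the libraries followed gene length, as given below, so folds between genes of unlike length can vary with the library. The levels spanned 33.8-fold from Cited1 down to Dapl1 in replicate 1 and 24.7-fold in replicate 2. Cited1 and Uncx were at 100 TPM or more in both libraries, a level reached by 9.31% of detected genes, and together held 55.9% and 58.8% of the summed level of the 10 genes. In all, 8 of the 10 were at 10 TPM or more in both libraries, against 56.9% of detected genes. The median of the members' mean levels was 22.4 TPM, with medians of 20.6 and 22.1 TPM within replicates 1 and 2, against 15.8 TPM over the 14329 detected genes.

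**Figure D1:**
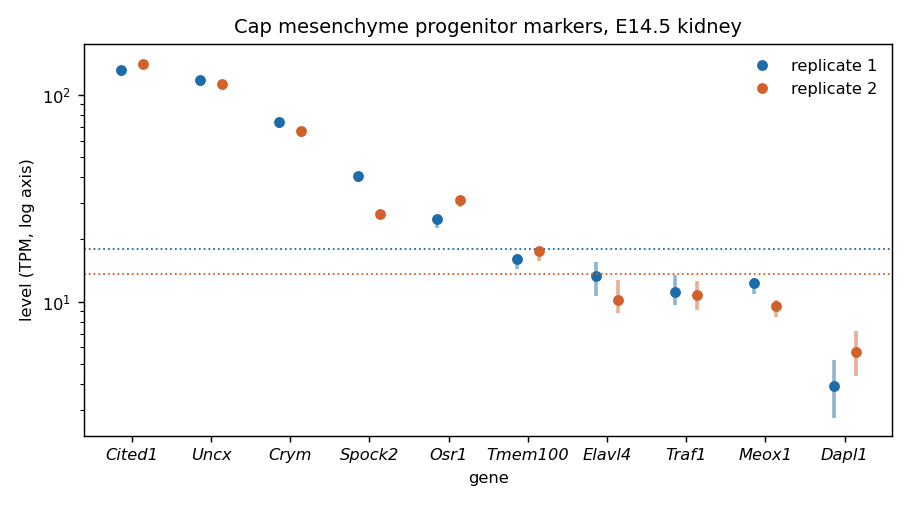
Level of each marker in TPM on a log axis, in order of the mean, with 1 point for each library; bars are the deposited credibility intervals within a library, and the dotted lines are the medians of detected genes in each library (17.9 and 13.6 TPM). Cited1, Uncx and Crym stand above the rest in both libraries and Dapl1 below them.

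Among the transcriptional regulators, Cited1 was the highest. It encodes a co-activator that binds CBP and p300 and lies on chromosome X, 102247381 to 102252181 (minus strand, ENSMUSG00000051159.12). Its level was 131 TPM in replicate 1 and 141 TPM in replicate 2, or 136 ± 6.92 TPM (SD, n = 2), from 2092 and 2586 expected counts. It stood above 91.9% and 92.9% of detected genes. Within a library Cited1 exceeded Six2 by 6.82-fold and 8.89-fold, and Wnt4, a gene of committed progenitors, by 10.4-fold and 8.80-fold.

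Uncx, a paired-type homeobox gene of somites and kidney mesenchyme on chromosome 5, 139543494 to 139548179 (plus strand, ENSMUSG00000029546.11), had 117 and 113 TPM, or 115 ± 3.17 TPM (SD, n = 2). It had the most counts of the 10 genes, 4133 and 4776. Both libraries of Uncx were below both of Cited1, by 1.12-fold and 1.25-fold. Uncx exceeded Six2 by 6.09-fold and 7.10-fold.

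Osr1 encodes a zinc-finger factor that marks the intermediate mesoderm before the kidney forms and is required for kidney development. It lies on chromosome 12, 9570116 to 9581500 (plus strand, ENSMUSG00000048387.7), and had 25.0 and 31.0 TPM, or 28.0 ± 4.26 TPM (SD, n = 2). Meox1, a homeobox gene with a main role in somites, lies on chromosome 11, 101877510 to 101894374 (minus strand, ENSMUSG00000001493.9). It had 12.3 and 9.51 TPM, or 10.9 ± 1.97 TPM (SD, n = 2), with 511 and 456 counts. Osr1 was thus higher in replicate 2 and Meox1 in replicate 1.

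The enzymes, adaptors and membrane proteins of the list were led by Crym. Crym encodes mu-crystallin, a protein that binds thyroid hormone and reduces ketimines, and lies on chromosome 7, 120186380 to 120202111 (minus strand, ENSMUSG00000030905.5). Its level was 74.1 and 66.6 TPM, or 70.4 ± 5.30 TPM (SD, n = 2). Traf1, an adaptor of tumour necrosis factor receptors on chromosome 2, 34941750 to 34961772 (minus strand, ENSMUSG00000026875.10), had 11.1 and 10.8 TPM, the smallest spread of the 10 genes at 2.0% of the mean. Its deposited intervals, 9.65 to 13.4 TPM and 9.13 to 12.6 TPM, from 333 and 346 counts, were far wider than that spread. Tmem100, a small transmembrane protein induced by BMP signals in endothelium, lies on chromosome 11, 90030348 to 90036508 (plus strand, ENSMUSG00000069763.3). It had 16.1 and 17.5 TPM, or 16.8 ± 0.962 TPM (SD, n = 2). Dapl1, a relative of the death-associated protein gene Dap, on chromosome 2, 59484653 to 59505020 (plus strand, ENSMUSG00000026989.5), had 3.89 and 5.71 TPM from only 36 and 61 counts. Its deposited intervals, 2.74 to 5.22 TPM and 4.37 to 7.20 TPM, overlapped, and were the widest of the list relative to the level.

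Spock2 and Elavl4 complete the list. Spock2 encodes testican-2, a secreted proteoglycan of the extracellular matrix, and lies on chromosome 10, 60106219 to 60135198 (plus strand, ENSMUSG00000058297.12). It had 40.4 TPM in replicate 1 and 26.6 TPM in replicate 2, or 33.5 ± 9.69 TPM (SD, n = 2), and this was the largest spread of the 10, at 28.9% of the mean. Elavl4 encodes HuD, an RNA-binding protein that stabilises messages in neurons, and lies on chromosome 4, 110203722 to 110351909 (minus strand, ENSMUSG00000028546.13). Its level was 13.3 and 10.1 TPM, or 11.7 ± 2.24 TPM (SD, n = 2). Elavl4 had more counts in replicate 2 (518) than in replicate 1 (419) although its TPM was lower there, and the deposited mean length of its transcripts, by which counts are divided, was 2369 nt in replicate 2 and 1714 nt in replicate 1.

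The order of the means was Cited1, Uncx, Crym, Spock2, Osr1, Tmem100, Elavl4, Traf1, Meox1 and Dapl1. For 6 of the 9 pairs of neighbours in this order both libraries of the higher gene were above both of the lower. The 3 exceptions were Spock2 with Osr1, Elavl4 with Traf1, and Traf1 with Meox1, whose library values overlapped. Spock2 was 1.61-fold over Osr1 in replicate 1 and 0.858-fold in replicate 2. Cited1, Uncx, Crym, Tmem100 and Dapl1 held the same rank in both libraries.

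The difference between the libraries followed gene length across the whole tables, and the markers are read against that. The log2 ratio of TPM + 1, replicate 1 over replicate 2, had a median of 0.26 over the 15075 genes with a mean of 1 TPM or more. That median rose from -0.15 for genes under 1000 nt to 0.10, 0.40 and 0.54 for those of 1000 to 2000, 2000 to 4000 and 4000 nt or more. No marker was 2-fold apart with 5 TPM or more in the higher library, a size reached by 4.56% of eligible genes towards replicate 1 and by 1% towards replicate 2. The median ratio of the markers was 0.047, a difference of -0.212 from that of all genes. When each marker was set against genes within 1.5-fold of its length and 2-fold of its level, the median difference was -0.0966. Exact conditional binomial 95% intervals of the ratios, which cover counting error only and use no pseudocount, were read against the all-gene median without pseudocount, 0.296. They lay below it for 7 of the 10 markers, against 32.6% of genes, and above it for 1, against 34.4%. The upper bound of Traf1, 0.262, was close to that median. The all-gene median is not matched for length. Among the 7, the intervals of Cited1, Crym, Traf1 and Dapl1 held the median of genes of like length and level, taken with the pseudocount. Those of Uncx, Osr1 and Tmem100 lay below it. The deposited credibility intervals of the 2 libraries did not overlap for 4 markers (Crym, Spock2, Osr1 and Meox1), against 56% of detected genes.

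These like genes were then set beside single markers. Spock2, the longest at 5195 nt in replicate 1, had a log2 ratio of 0.58 (interval without pseudocount 0.53 to 0.67), and the 1051 genes like it had a median of 0.63. Cited1, with 914 nt, had -0.10 (interval -0.19 to -0.02), beside a median of -0.12 for its 609 like genes. Meox1 at 0.34 also sat on the median of its like genes, 0.34, and Elavl4 at 0.36 was near its own, 0.31. The Elavl4 ratio depends on its unequal deposited lengths, 1714 nt in replicate 1 and 2369 nt in replicate 2, as its counts were 419 and 518. Dapl1, with 573 nt, had -0.46 (interval -1.19 to 0.06), below the median of its 297 like genes, -0.09, and inside their middle 90%, -0.88 to 0.90. Cited1, Spock2, Meox1 and Elavl4 were thus near genes of their length and level, while Tmem100 and Osr1 were lower. Dapl1 was also lower, but its wide interval held the median of its like genes. The differences were smaller for Uncx (0.06 beside 0.20), Traf1 (0.04 beside 0.19) and Crym (0.15 beside 0.09). Of these 3, only the Uncx interval, -0.004 to 0.117, left out the median of its like genes. The part that length had in the ratios of single markers was not tested.

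Osr1 was the 1 marker outside the middle 90% of genes of its length and level, a range that leaves out 10% of genes by construction, so 1 of 10 markers is the background share. Its log2 ratio was -0.30 (interval -0.43 to -0.19), whereas the middle 90% of its 2417 like genes ran from -0.23 to 0.79 with a median of 0.28. The other 9 markers lay inside the corresponding range of their like genes. Tmem100 at -0.11 was below the median of its like genes, 0.25, and inside their range of -0.32 to 0.73. Osr1 was singled out here after its value was seen. As a yardstick of measurement scatter, the 35 added spike-in RNAs with counts in the range of the markers, 274 to 1994 nt long, had log2 ratios from -0.32 to 0.81 with a median of 0.10.

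**Figure D2:**
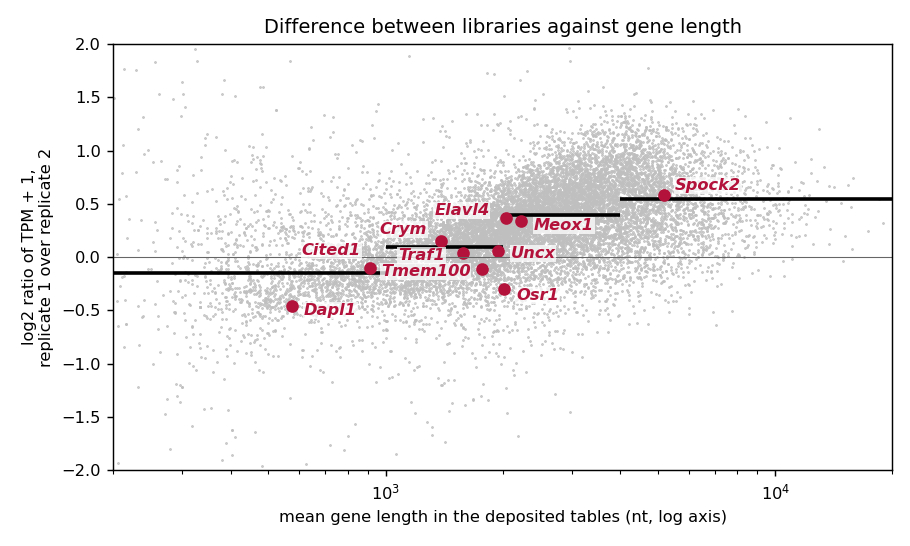
Log2 ratio of TPM + 1, replicate 1 over replicate 2, against mean gene length in nt on a log axis; grey points are genes with a mean of 1 TPM or more, black bars the medians of 4 length classes and red points the markers, while 361 genes outside the axes are not drawn. Spock2 and Meox1 lie close to the trend, and Osr1 lies below most genes of its length.

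The annotated transcripts of the markers fell into simple and divided cases. Meox1, Osr1 and Tmem100 have 1 transcript in the tables. Crym-201 held 99.5% and 99.6% of the Crym level, and Spock2-201, with 11 exons and a coding length of 1269 nt, 98.9% and 98.2% of Spock2. Dapl1-201 took 100% in both libraries, with Dapl1-202 listed at 0. For each of the 10 genes, replicates 1 and 2 had the same leading transcript.

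Cited1 was read mostly from its outermost start. Cited1-201, which starts at 102252181 and whose upstream letters are shown above, held 88.0% and 87.0% of the gene. Cited1-202 starts at 102251852, inside the first intron of Cited1-201, and held 10.2% and 10.3%. The stretch shown for it begins at the first base after the first exon of Cited1-201. Both have 3 exons and the same coding length of 609 nt. Cited1-203 and Cited1-204, which start farther inside the gene, held 1.09% and 0.79% in replicate 1 and 1.64% and 1.10% in replicate 2. These shares are estimates from reads that can match several transcripts. The deposited intervals of the 2 libraries overlapped for each of these 4 transcripts.

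Uncx divided differently in the libraries. A 2091-nt transcript (ENSMUST00000031523.8 in the tables, without a match in the annotation used for names) held 77.5% and 86.0%. Uncx-202, a 1196-nt form with 2 exons, held 21.5% and 13.1%. Its level was 25.2 TPM in replicate 1, with an interval of 22.0 to 27.0 TPM, and 14.8 TPM in replicate 2, with an interval of 12.7 to 16.4 TPM, so these did not overlap. The leading Uncx transcript had 91.0 and 97.1 TPM. Hence the near-equal gene levels of Uncx, 117 and 113 TPM, were made up of unequal parts. For whole genes, the deposited intervals of the 2 libraries did not overlap for 56% of detected genes. That share was not computed for transcripts.

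Traf1 and Elavl4 were spread over many transcripts. Traf1-201, with 9 exons and a coding length of 1227 nt, led with 39.0% and 55.9%. Traf1-202, with the same coding length and 11 exons, took 16.6% in replicate 1 and was listed at 0 in replicate 2. Its intervals, 0.708 to 3.05 TPM and up to 0.731 TPM, overlapped narrowly. Transcripts of protein-coding type together held 57.3% of Traf1 in both libraries, and the remainder went to Traf1-203, Traf1-204, Traf1-205 and Traf1-206, which are annotated without a coding sequence. Of the 12 Elavl4 transcripts, the 869-nt noncoding Elavl4-211 led with 32.6% and 25.6%.

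The 7 Elavl4 transcripts of 3000 nt or more, all of protein-coding type, summed to 4.15 and 5.06 TPM, or 31.2% and 50.0% of the gene. Among them Elavl4-207, from the farthest start at 110351909, held 15.4% and 17.4%. Elavl4-201 and Elavl4-203, from the start at 110286889, together held 10.6% and 25.9%, and the inner start at 110287527, which also begins the 663-nt Elavl4-212, held 7.74% and 6.71%. Elavl4-208, a 644-nt form, held 15.1% and 24.5%, and Elavl4-210 held 18.5% in replicate 1 and was listed at 0 in replicate 2. The level of Elavl4-211 had intervals of 2.37 to 5.42 TPM and 1.15 to 3.94 TPM, which overlapped. The intervals of Elavl4-210 also overlapped, at 0.496 to 4.64 TPM in replicate 1 and up to 1.62 TPM in replicate 2, so its listing at 0 does not set the libraries apart.

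**Figure D3:**
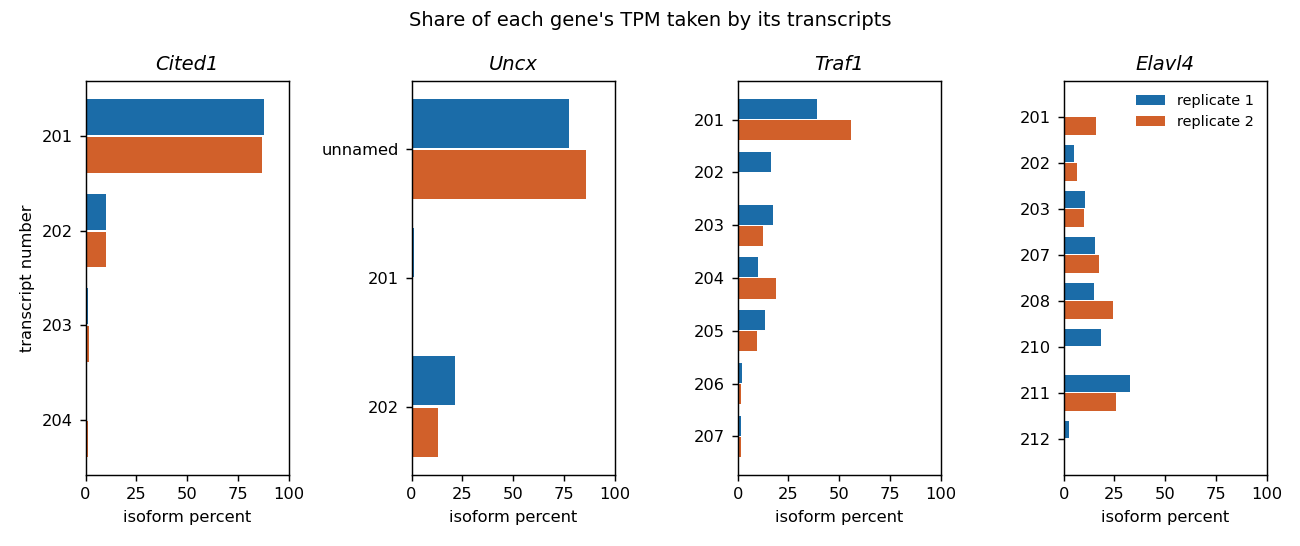
Percent of the TPM of Cited1, Uncx, Traf1 and Elavl4 taken by each transcript with 1% or more in either library, 1 bar for each library; transcript numbers follow the gene name, and "unnamed" is the 2091-nt Uncx transcript. Cited1 has 1 dominant transcript, at 88.0% and 87.0%, while Traf1 and Elavl4 are divided.

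Paralogs of the markers showed whether the marker was the main member of its family in the tissue. Cited1 held 67.4% ± 3.30 (SD, n = 2) of the summed level of its family. Cited2, a broadly expressed co-activator, had 62.0 and 54.4 TPM and Cited4 had 8.64 and 6.95 TPM. Spock2 held 94.7% ± 1.01 of its family, with Spock3 at 1.56 and 1.49 TPM and Spock1 at 0.39 and 0.22 TPM, from 20 and 15 counts. Both are families in which the marker exceeded each relative in both libraries.

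In other families the marker was not the highest. Osr2 had 80.8 and 61.3 TPM, so Osr1 stood at 0.310-fold and 0.507-fold of it. Meox2 had 10.7 and 12.4 TPM, and Meox1 was 1.15-fold over it in replicate 1 and 0.764-fold in replicate 2, so their order was not the same in both libraries. Traf1 held 5.60% ± 0.0328 (SD, n = 2) of the Traf family. Traf4 (53.4 and 83.0 TPM), Traf7 (69.2 and 51.8 TPM) and Traf2 (26.6 and 22.5 TPM) were above it in both libraries, while Traf3, Traf5 and Traf6 had mean levels between 9.79 and 11.6 TPM. Dap had 65.9 and 68.6 TPM, far above Dapl1.

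Among the Elavl genes, the widely expressed Elavl1 (HuR) had 86.4 and 53.4 TPM. Of the 3 members best known from neurons, Elavl4 was the highest, as Elavl2 had 2.89 and 2.06 TPM and Elavl3 had 0.07 TPM in both libraries, from 7 and 8 counts. Elavl4 thus exceeded Elavl2 by 4.60-fold and 4.92-fold.

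Markers of cells that could also hold these RNAs were set beside the genes concerned. For Elavl4, 4 of 16 genes of neurons and Schwann cells were detected, among them Gap43 (10.5 and 14.2 TPM), Stmn2 (4.65 and 5.48 TPM) and Nefl (1.55 and 1.22 TPM), and the list summed to 24.6 and 26.8 TPM. Elavl4 was at 2.86-fold and 1.85-fold of Stmn2, and Gap43 was below Elavl4 in replicate 1 and above it in replicate 2. These comparisons use the whole Elavl4 level, part of which went to short transcripts with few counts. Among these, the noncoding Elavl4-211 had 65.1 counts in replicate 1 and 45.0 in replicate 2. The 7 Elavl4 transcripts of 3000 nt or more summed to 4.15 and 5.06 TPM, which was below Stmn2 in both libraries. Tubb3 had 1.54 and 0.83 TPM, and Elavl4 exceeded it by 8.64-fold and 12.2-fold. Dbh, the noradrenaline-synthesising enzyme of autonomic neurons, had 2 and 0 counts. For Meox1 and Uncx, 3 of 10 genes of somites and skeletal muscle were detected, Tnni1, Tcf15 and Mylpf at 14.6, 14.3 and 7.54 TPM (means), the list summed to 37.5 and 38.2 TPM, and Myf5 and Pax7 had 0 counts.

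For Tmem100, all 10 endothelial genes were detected, from Egfl7, Plvap and Emcn at 141, 91.1 and 69.3 TPM to Tie1 and Tek at 21.1 and 16.7 TPM (means), with sums of 540.0 and 502 TPM. Tmem100 stood at 0.566-fold and 0.740-fold of the endothelial cadherin Cdh5. For Traf1, 8 of 10 leukocyte genes were detected, with sums of 125 and 99.5 TPM. Lyz2, C1qb and Tyrobp led at means of 34.6, 29.2 and 19.3 TPM, Itgam had 0.28 TPM, and the T cell gene Cd3e had 1 and 2 counts. The B cell gene Cd79a was detected at 1.21 TPM in both libraries, from 32 and 37 counts. Traf1 exceeded Ptprc, the common leukocyte antigen CD45, by 2.82-fold and 5.32-fold. For Osr1, the 10 stromal genes were all detected, with sums of 1320 and 1050 TPM. Col3a1, Tcf21 and Col1a1 led at means of 414, 274 and 242 TPM, and Foxd1 and Tbx18 were lowest at 15.3 and 2.54 TPM. Osr1 exceeded the stromal progenitor gene Foxd1 by 2.02-fold and 1.70-fold. The 10 genes of the ureteric epithelium, which the cap surrounds, were all detected, led by Epcam, Calb1 and Krt8 at means of 169, 166 and 152 TPM, with Ret and Wnt9b lowest at 8.07 and 5.13 TPM. How much of each marker's level came from these other cells was not tested.

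Other nephron progenitor genes were all detected, 20 of 20, with a median of 35.5 TPM, and 16 were at 10 TPM or more in both libraries. Cdh11 (an adhesion molecule also of stroma), Gas1 (a cell surface co-receptor) and Wt1 (a zinc-finger regulator) led with means of 118, 111 and 105 TPM, and the growth factor gene Fgf20 and the homeobox gene Hoxc11 were lowest at 2.92 and 2.79 TPM. Of the 10 markers, 3 (Cited1, Uncx and Crym) were above the median of this list. Genes of committed progenitors and early nephrons were detected in 14 of 14 cases with a median of 25.0 TPM, and 5 of the 10 markers stood above that. The median log2 ratio between the libraries was 0.33 for the other progenitor genes and 0.49 for the committed and early nephron genes, beside 0.047 for the markers and 0.26 for all genes. These lists were not matched for gene length, and genes of 1000 to 2000 nt and of 2000 to 4000 nt had medians of 0.10 and 0.40. The part that length had in the list medians was not tested. Among the committed and early nephron genes Ccnd1 (cyclin D1) and Pax8 led at 197 and 89.7 TPM, and Pou3f3 and Greb1 were lowest at 6.64 and 5.67 TPM.

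**Figure D4:**
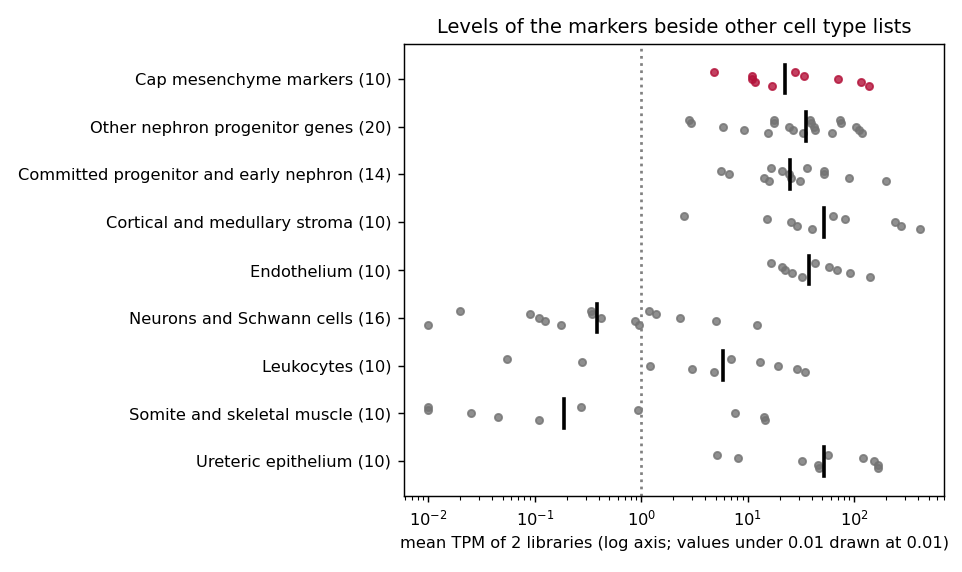
Mean TPM of the 2 libraries for each gene of each list on a log axis, with the number of genes in parentheses; black bars are list medians and the dotted line is 1 TPM. The markers lie among the other lists of kidney cells, and the lists of neurons and of somites and skeletal muscle lie mostly under 1 TPM, with medians of 0.38 and 0.19 TPM.

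Annotated genes that overlap a marker were checked, since whether counting used strand is not given. Gm11551, antisense to an intron of Meox1, had 0 and 2 counts. On the other strand, 1700022H16Rik overlaps the start of the Osr1 gene span but not Osr1-201, which starts at 9574441. It had 0 counts in both libraries, where 0 counts allow up to 3. Mir6906 lies in an intron of Spock2 and is not analysed here. No exon of these genes overlaps an exon of a marker.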

How the data were processed

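Per the labels' protocols, RNA was extracted with a mirVana kit, RNA longer than 200 nt was kept and spike-in RNAs were added. The authors deposited a gene and a transcript table for each library, on mm10 with GENCODE annotation M4 per the text deposited with them. The aligner, the counter and the strand setting were not given in the sources used here, although the columns bear the names RSEM writes. The deposited expected counts are estimated reads per feature, with totals of 29718428 and 29204212. The deposited TPM and FPKM values are scaled per length, the deposited percent divides each gene's TPM among its transcripts, and the deposited interval bounds are a signal on the TPM scale at an unstated level. Lengths in nt are other values deposited by the authors.

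Symbols, coordinates (1-based), exons and transcript names come from GENCODE M21 on GRCm38, another release than M4. Of 43346 gene IDs 42462 matched. Start-site sequences are from RefSeq. The members and lists were chosen with earlier results of these data known, and the named genes are all members, their paralogs and the 3 highest and 2 lowest of each list, plus genes set beside a member. Some genes that this rule names are not reported here. Ratios use a pseudocount of 1, which understates differences of low genes. TMM factors (edgeR 4.0.16, R 4.3.3) on rounded expected counts were an alternative. The ratio interval and the size rule were tested on simulated Poisson counts. These hold counting error only, so other spread between libraries was not covered by that test. With 1 group and 2 libraries no gene was tested. Tables were handled in pandas 2.3.3, intervals computed in scipy 1.17.1 and plots drawn in matplotlib 3.10.9, under Python 3.11.15.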

Additional observations from a re-analysis of the deposited data

How the results depend on the processing

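All 10 markers remained detected at floors of 0.5 and 2 TPM, with posterior mean TPM, with FPKM and in each library alone, and 9 were at 5 TPM or more in both libraries. The median level of the markers was 26.3 TPM when mitochondrial, haemoglobin and spike-in features were left out of the scaling, and ran from 20.6 to 22.1 TPM with 1 library left out. Other scales moved the median of all genes, from 0.26 on TPM to 0.05 on FPKM and -0.000392 on TMM-scaled counts, and with it the median ratio of the markers, to -0.171 and -0.353. Read against all genes on the same scale, 7 markers were below the median on TPM and FPKM and 8 on TMM-scaled counts, where Elavl4 joined them. Those counts are not divided by length, and the deposited length of Elavl4 differed between the libraries (1714 nt in replicate 1 and 2369 nt in replicate 2). The difference from all genes, -0.212 on TPM, was -0.353 on TMM-scaled counts and -0.0966 against genes of like length and level. The comparisons with all genes on other scales and with like genes were chosen after the data were seen. With 2 libraries an SD rests on 1 difference, and Dapl1, at 36 and 61 counts, was limited by depth.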
